A study of Mus musculus with 6 samples.

Results

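Intermediate filaments are the ropelike part of the cytoskeleton, and lamins are the intermediate filament proteins that line the inside of the nuclear envelope. Described here are 10 of them in Neuro-2a, a line of sympathetic-like neuroblasts from a mouse neuroblastoma: the light, medium and heavy neurofilament genes Nefl, Nefm and Nefh, alpha-internexin (Ina), peripherin (Prph), vimentin (Vim), nestin (Nes), and the lamins Lmna, Lmnb1 and Lmnb2. The members were taken by symbol, and 10 of the 21878 rows of the deposited table carried these symbols. RNA sequencing covered 6 libraries in 3 groups of 2. Control cells are labelled wild type, the overexpression group carries raised lncPim1, a long noncoding RNA, and the knockdown group had lncPim1 lowered by RNA interference. All 3 groups are the same cell line, and the labels give no time, dose, vector, scrambled RNA or clone for any of them. Whether libraries of a group are from separate cultures is not said, so each p-value speaks for the spread of these libraries alone, which may be technical.

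In neurons, neurofilament proteins, alpha-internexin and peripherin assemble together along the axon, where they set its calibre. The heavy and medium chains carry long phosphorylated tails and depend on a partner chain to form filaments. Peripherin marks peripheral and sympathetic neurons and can form filaments alone. Vimentin and nestin are typical of dividing progenitors and are largely replaced by neurofilaments as neurons mature. B-type lamins stay farnesylated and membrane-bound, whereas lamin A is cut free of its farnesyl anchor by a protease.

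Deposited values are FPKM, in which fragments are divided by transcript length and library size, so levels of different genes can be set beside each other on this per-length scale. Summed FPKM lay between 294510 and 305463 in control and overexpression libraries and was 277508 and 272528 in the knockdown libraries. Relative depth, read from the steps between low values, ranged from 0.891 to 1.09 times that of control 1, and absolute depth is unknown, so no counting interval can be given. Since 0 rows are named lncPim1, the targeted RNA gives no check of the groups. Of 14 sympathetic neuroblast markers, 12 passed the filter, which kept genes averaging 1 FPKM or more. FPKM summed over the 14 was 1331 and 1287 in control, 1107 and 1242 under overexpression, and 1021 and 999.5 under knockdown. Single markers went both ways, as 2 genes chosen after their values were seen show. Phox2a, a homeobox factor of sympathetic neurons, stood at 237 and 210 FPKM in control, 184 and 211 under overexpression, and 147 and 151 under knockdown. Th, the tyrosine hydroxylase gene, stood at 4.99 and 4.67, 5.67 and 7.24, and 11.9 and 9.32 FPKM.

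Markers of other cell types that use vimentin, nestin or keratins were low. Of 12 mesenchymal markers, 8 stayed under 1 FPKM in all libraries, and the summed FPKM, 49.6 to 50.8 in control and overexpression and 33.7 to 34.7 under knockdown, came mostly from Fn1, the fibronectin gene. The fibroblast genes Col1a1, Col1a2 and Col3a1 did not exceed 0.234 FPKM. Summed over 10 glial markers, FPKM was 5.50 to 6.34 in control and overexpression and 6.82 to 7.46 under knockdown, with Fabp7 at 0 in all. The 8 macrophage markers summed to 0.233 and 0.195 FPKM in control, 0.773 and 0.270 under overexpression, and 1.39 and 1.60 under knockdown. The 8 epithelial markers summed to 2.41 to 3.12 FPKM in control and overexpression and to 1.27 to 1.73 under knockdown. Summed FPKM of 11 digestive-tract genes was 24.3 to 36.3 in control and overexpression and 0.584 to 0.623 under knockdown. All 11 passed the filter, through their control and overexpression values. Their highest knockdown value was 0.533 FPKM, for Apoa1 in knockdown 1. The part of these transcripts in the results below was not tested.

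Promoter sequence is shown for Prph and Vim, the members of highest FPKM, beside Ina and Nes, which join them in filaments at lower FPKM, to show how the letters before their starts differ. The windows run from 45 to 16 bases before the RefSeq transcript start on build GRCm38.p6, 5′ to 3′ on the gene's strand, with any TATAAA in capitals. The Vim window lies inside the annotated span of the gene, which begins upstream at base 13573927 in GENCODE.
Prph, chr15:99055129-99055158, plus strand: ggagaccgcagggcTATAAAgccgccccgc
Vim, chr2:13574266-13574295, plus strand: ttcctaacagtgtTATAAAagcagcgccct
Ina, chr19:47014636-47014665, plus strand: cgccccaaccccgcgccttaaaagccccgc
Nes, chr3:87971048-87971077, plus strand: gtatgaataccctcgcttcagctcgctgct
Prph and Vim, the members of highest FPKM, held TATAAA with its first base 31 and 32 bases before the start. Over the 250 bases before the start, TATAAA was found on either strand in 12.4% of 32851 promoters in the table. Neither TGANTCA (in 6.75% of promoters), the letters bound by AP-1 factors, nor GCGTGGGCG (in 0.536%), those bound by Egr factors, was found on either strand in the 250 bases of Prph, Vim, Ina, Nes, Lmna or Lmnb2. Lmna and Lmnb2 had 2 start sites each, and all were searched. Both Lmna windows, and that of start site 2 of Lmnb2, lie inside the annotated spans of these genes. A match is a description of letters and no match says only that they are absent from the window searched.

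The whole window also shows how the promoters of Ina and Prph, partners in the same filaments, differ in base composition. That of Ina, on chr19:47014431-47014680, had 70.8% GC and 25 CpG, and that of Prph, on chr15:99054924-99055173, had 65.2% GC and 7 CpG, against a median of 52.4% GC over all promoters. The GENCODE start of Ina, base 47014698, lies within the annotated span of Nt5c2 on the other strand, which ends at 47015153. Whether the composition of the Ina window belongs to Ina or to Nt5c2 was not tested.
Ina: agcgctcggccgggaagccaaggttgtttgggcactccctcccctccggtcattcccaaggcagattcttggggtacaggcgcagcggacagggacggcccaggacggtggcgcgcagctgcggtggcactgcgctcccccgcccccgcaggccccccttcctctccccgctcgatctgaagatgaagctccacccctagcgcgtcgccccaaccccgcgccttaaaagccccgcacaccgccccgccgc
Prph: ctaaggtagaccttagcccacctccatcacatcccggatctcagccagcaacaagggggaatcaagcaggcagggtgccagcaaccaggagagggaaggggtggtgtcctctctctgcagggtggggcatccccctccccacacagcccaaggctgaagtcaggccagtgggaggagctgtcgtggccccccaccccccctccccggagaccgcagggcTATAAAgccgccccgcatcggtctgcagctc

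The 10 members covered a wide range of levels. Prph averaged 390 ± 11.9 FPKM (SD, n = 2) and Vim 359 ± 11.6 FPKM in control cells, rank 94 and 98 among all rows. They were followed by Lmna (40.7 ± 1.19 FPKM), Lmnb1 (34.7 ± 3.09), Ina (31.4 ± 0.856), Nefh (23.5 ± 0.990), Nes (22.8 ± 0.0700) and Lmnb2 (8.61 ± 0.108). In the control libraries the ranges of Nefh and Nes overlapped. Neighbours from Prph down to Nefh did not overlap in the control libraries. Under knockdown the order below Lmna changed: Ina and Lmnb1 overlapped, and Nefh fell below Nes. Together the 10 members made up 0.301% and 0.303% of summed FPKM in control, 0.306% and 0.296% under overexpression, and 0.273% and 0.289% under knockdown.

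**Figure D1:**
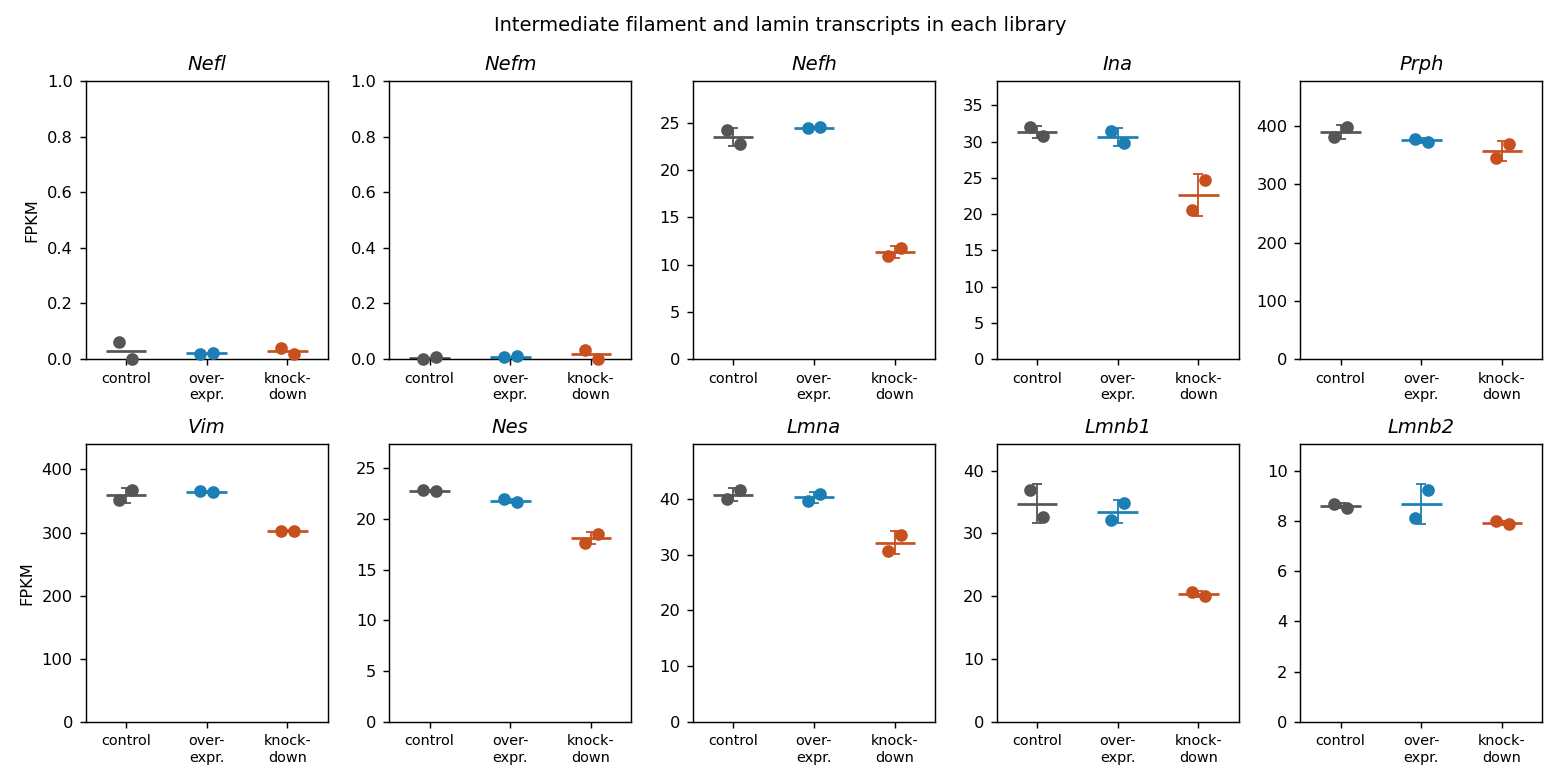
FPKM of each of the 10 genes, with a panel per gene and its own vertical axis from 0. Points are libraries, lines are means and bars the SD of 2 libraries (no bar for Nefl and Nefm). Nefl and Nefm lie at the floor in all groups, and the knockdown points of the other 8 genes lie below their control points.

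Nefl and Nefm, the light and medium neurofilament chains, were close to undetected. Nefl stood at 0.0612 FPKM in control 1 and was listed at 0 in control 2. It stood at 0.0196 and 0.0228 FPKM under overexpression and at 0.0391 and 0.0184 under knockdown. Nefm was listed at 0 in control 1 and in knockdown 2, and stood at 0.00873 FPKM in control 2, 0.00836 and 0.00973 under overexpression, and 0.0336 in knockdown 1. The groups overlapped for both genes. Scaled by relative depth, the Nefl values were 3.07, 0, 1, 1.02, 2.02 and 1.00 times the lowest value above 0, in the order control, overexpression, knockdown. Those of Nefm were 0, 1.00, 1, 1.02, 4.05 and 0 times theirs. These are close to whole multiples, as a few fragments per library give, so a difference between groups was not detectable at this depth. Both fell under the filter and were not tested. The genes overlap on chromosome 14 of build GRCm38, Nefl from 68083863 to 68089095 on the plus strand and Nefm from 68082590 to 68124846 on the minus strand. The annotated span of Nefm holds all 5233 bases of Nefl, and whether counting used strand is not stated, so reads within those bases cannot be assigned to either gene here.

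Nefh, whose product is the heavy chain and partners with the light chain in neurons, was present although Nefl was near 0 in the same libraries. Its FPKM was 24.2 and 22.8 in control, 24.4 and 24.5 under overexpression, and 10.9 and 11.7 under knockdown. Both knockdown libraries lay below the other 4, with a mean at 48.1% of control. The log2 fold change under knockdown was -0.99 ± 0.06 (SE), with a 95% interval from -1.13 to -0.86 (limma, Benjamini-Hochberg adjusted p = 5.37e-05). It was rank 32 from the lowest of 10721 tested genes. The gene spans bases 4938754 to 4948064 of chromosome 11, minus strand.

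Ina, a neurofilament partner made early in neuronal development, stood at 32.0 and 30.7 FPKM in control, 31.5 and 29.7 under overexpression, and 20.5 and 24.7 under knockdown. The knockdown libraries were lower than the rest but differed from each other by more than the libraries of either other group. The log2 fold change was -0.46 ± 0.08 (SE; limma, adjusted p = 0.00216). Without knockdown 1 it was -0.33, and without knockdown 2 it was -0.59, the range over all libraries left out. The first 456 bases of Ina, 47014698 to 47015153 on the plus strand of chromosome 19, lie within the annotated span of Nt5c2 on the other strand, so reads there cannot be assigned without the strand setting. Nt5c2, a nucleotidase gene, averaged 8.14 ± 0.210 FPKM in control and 5.80 ± 0.613 under knockdown.

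Prph, the peripheral neuron filament, stood at 381 and 398 FPKM in control, 379 and 373 under overexpression, and 346 and 369 under knockdown. Control values were highest and the knockdown values lowest, without overlap between groups. The log2 difference of overexpression from control, -0.05 ± 0.05, was not called (limma, adjusted p = 0.673). On the log2 scale knockdown differed from control by -0.12 ± 0.05 which was not called (limma, adjusted p = 0.0843; 95% interval -0.24 to -0.0037). With the libraries scaled to a common FPKM sum it was 0.0096, so its direction depends on the scaling.

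The proportions of the neuronal filament transcripts differed under knockdown. Of the summed FPKM of Nefl, Nefm, Nefh, Ina and Prph, Nefh made up 5.53% and 5.05% in control, 5.61% and 5.74% under overexpression, and 2.88% and 2.89% under knockdown. Prph made up 87.1% and 88.1%, 87.1% and 87.3%, and 91.7% and 91.0%. The ratio of Prph to Nefh was 15.8 and 17.5 in control, 15.5 and 15.2 under overexpression, and 31.8 and 31.5 under knockdown. That of Ina to Nefh was 1.32 and 1.35, 1.29 and 1.21, and 1.89 and 2.10. The knockdown libraries were apart from the others in each of these ratios (exact permutation test of knockdown against control, two-sided, p = 0.333, the smallest that 2 libraries against 2 allow). Multiplying a library by a constant leaves such ratios as they are, whereas quantile normalization changes them.

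**Figure D2:**
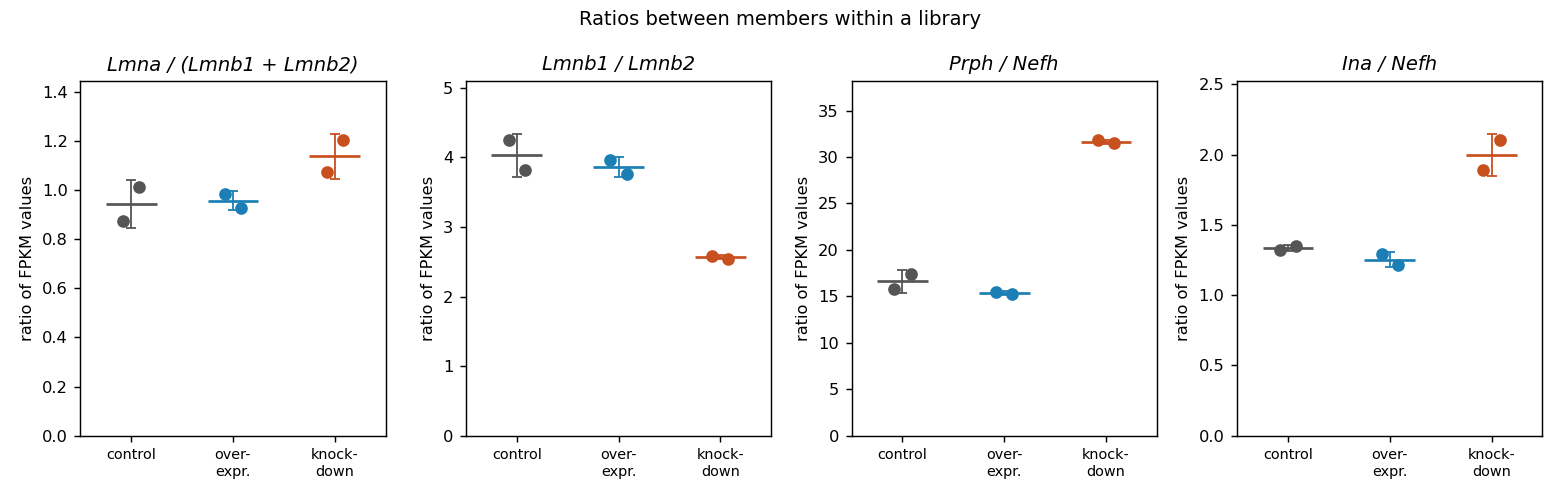
Ratios of FPKM values between members in each library, vertical axes from 0. Points are libraries, lines are means and bars the SD of 2 libraries. In each panel both knockdown points lie outside the range of the other 4, below it for Lmnb1 / Lmnb2 and above it for the other 3 ratios.

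Vimentin and nestin, the filaments of dividing progenitors, were also lower under knockdown. Vim stood at 351 and 367 FPKM in control, 366 and 364 under overexpression, and 303 and 303 under knockdown. The knockdown libraries were nearly equal and below the rest. Vim fell by 0.24 ± 0.05 on the log2 scale (limma, adjusted p = 0.00348), and this was the only member call lost under an alternative in this comparison: after quantile normalization it was -0.11 (limma, adjusted p = 0.0631). Nes, which assembles with vimentin, stood at 22.8 and 22.7 FPKM in control, 21.9 and 21.6 under overexpression, and 17.7 and 18.5 under knockdown. Both treated groups lay below control, and the knockdown libraries were lowest. The log2 difference of overexpression from control, -0.06 ± 0.05, was not called (limma, adjusted p = 0.576). Nes fell by 0.32 ± 0.05 on the log2 scale under knockdown (limma, adjusted p = 0.00143). Both genes are on plus strands, Vim spanning 13573927 to 13582826 of chromosome 2 and Nes 87971078 to 87980451 of chromosome 3.

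Among the lamins, Lmnb1 changed most. This B-type lamin, whose transcript is known to be lost in senescent cells, stood at 36.9 and 32.6 FPKM in control, 32.1 and 34.8 under overexpression, and 20.7 and 20.0 under knockdown. The knockdown libraries were close together and well below the other 4. Lmnb1 fell by 0.74 ± 0.07 on the log2 scale (limma, adjusted p = 1.71e-04), rank 92 from the lowest of all tested genes. Lmna, which encodes lamins A and C, stood at 39.9 and 41.6 FPKM in control, 39.6 and 40.9 under overexpression, and 30.7 and 33.6 under knockdown. It fell by 0.33 ± 0.06 under knockdown, again without overlap (limma, adjusted p = 0.00201). Lmnb2, the other B-type lamin, stood at 8.69 and 8.54 FPKM in control, 8.11 and 9.24 under overexpression, and 7.99 and 7.88 under knockdown. Its knockdown libraries were lowest, but the log2 fold change of -0.11 ± 0.07 was not called (limma, adjusted p = 0.244; 95% interval -0.26 to 0.05), and was 0.01 with libraries scaled to a common FPKM sum.

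Ratios between the lamins differed under knockdown as well. Lmnb1 was 4.25 and 3.81 times Lmnb2 in control, 3.96 and 3.77 times under overexpression, and 2.59 and 2.54 times under knockdown. Lmna relative to the sum of Lmnb1 and Lmnb2 was 0.875 and 1.01 in control, 0.984 and 0.929 under overexpression, and 1.07 and 1.20 under knockdown. The knockdown values were highest, and the gap to the nearest control library, 1.01 against 1.07, was smaller than the gap between the control libraries. Lmna lies on chromosome 3, from 88480147 to 88509956, and Lmnb2 on chromosome 10, from 80901203 to 80918245, both on the minus strand.

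To ask what lowering lncPim1 changed, all tested genes were compared at once. Of the 8 members tested, 6 were called lower under knockdown (Nefh, Lmnb1, Ina, Lmna, Nes and Vim), 0 higher, and 2, Prph and Lmnb2, were not called. In the same comparison 31.3% of all 10721 tested genes were called lower and 14.8% higher. All 8 members lay below control without overlap, as did 47.9% of tested genes. The median log2 fold change was -0.33 over the 8 members and -0.07 over all tested genes. All 8 members averaged at least 5 FPKM. Of the 7499 genes that did so, 2959 were called lower and 942 higher with that filter, and their median was -0.11. The call of 6 lower members held with each of the 6 libraries left out, and quantile normalization gave 5. How calls split by direction over all genes rests on the scaling: 1590 were higher and 3358 lower as deposited, 2158 and 2420 after scaling by median log ratio, 2003 and 2292 after quantile normalization, and 2718 and 1743 with libraries scaled to a common FPKM sum. That last scaling took the median of all genes from -0.07 to 0.05, and Nefh to -0.87, Lmnb1 to -0.61, Ina to -0.33, Lmna to -0.20, Nes to -0.19 and Vim to -0.11, all still called. These are bulk libraries, in which fewer cells of a type and less RNA per cell cannot be told apart.

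**Figure D3:**
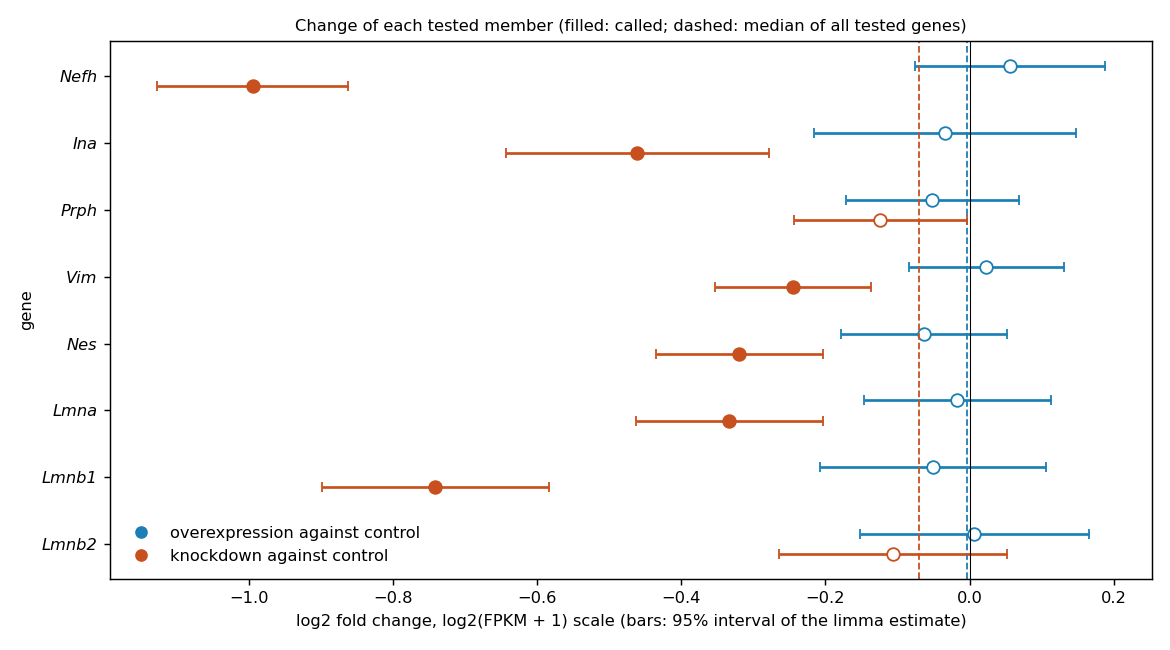
Log2 fold change against control of the 8 tested members, on the log2(FPKM + 1) scale, with 95% intervals from limma. Filled points are called (adjusted p under 0.05), open points are not, and dashed lines are the medians of all tested genes. The overexpression points sit around 0, and 6 of the 8 knockdown points are filled and lie below it, from -0.24 for Vim to -0.99 for Nefh.

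What raising lncPim1 changed was asked in the same fit, and no member passed the test. Of the 8 tested members limma called 0, and 0 had an unadjusted p under 0.05, where 1.54% of all tested genes were called, 0.69% higher and 0.849% lower, and 17.1% had such a p. Fold changes on the log2 scale ran from -0.06 for Nes to 0.06 for Nefh, and the 95% intervals of all 8 lay between -0.22 and 0.19. In FPKM, Nefh was higher than control in both libraries, as were 23.3% of tested genes, and Prph and Nes were lower, as were 26.2%. The other 5 members overlapped with control. The adjusted p of the 8 members was 0.484 or above in every alternative run.

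The difference between the treated groups was tested directly. Of the 8 members, 6 were called higher under overexpression than under knockdown, the same 6 genes, where 28.1% of all tested genes were called higher. Nefh differed by 1.05 ± 0.06 on the log2 scale (limma, adjusted p = 6.47e-05), Lmnb1 by 0.69 ± 0.07 and Ina by 0.43 ± 0.08. Lmna (0.32 ± 0.06), Vim (0.27 ± 0.05) and Nes (0.26 ± 0.05) followed, and Nes was not called with libraries scaled to a common FPKM sum (limma, adjusted p = 0.0811). Prph differed by 0.07 ± 0.05 (limma, adjusted p = 0.300; 95% interval -0.05 to 0.19) and Lmnb2 by 0.11 ± 0.07 (0.225; -0.05 to 0.27). This comparison shares its knockdown libraries with the one against control.

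The other cytoplasmic intermediate filament genes were mostly silent. Of 29 such genes, 21 of them keratins, 6 reached the filter and 8 were listed at 0 in all 6 libraries. Krt8, Krt18 and Gfap, filaments of simple epithelium and astrocytes, did not exceed 1.47, 0.0796 and 0.0655 FPKM in any library. Under knockdown 2 of the 6 were higher and 0 lower (14.8% and 31.3% over all tested genes), with a median of 0.12. With no filter, so that genes averaging under 1 FPKM entered too, 1 gene of the list was higher and 3 were lower. In that run 1867 of all 17311 genes were called higher and 3027 lower. Iffo1, which encodes a nuclear intermediate filament-like protein, went from 6.61 and 6.68 FPKM in control to 9.21 and 9.20, a log2 fold change of 0.42 ± 0.06 (limma, adjusted p = 0.00116). Des, the desmin gene of muscle, stood at 1.62 and 1.45 FPKM in control and 2.03 and 1.98 under knockdown, and rose by 0.25 ± 0.09 (limma, adjusted p = 0.0430), a call that ended with any of the 6 libraries left out (limma, adjusted p = 0.0581 to 0.201). Synm, whose product synemin joins vimentin and desmin filaments, stood at 5.99 and 5.87 FPKM in control and 6.77 and 6.91 under knockdown and was not called (0.18 ± 0.06; limma, adjusted p = 0.0511). Krt17 was the gene of smallest p under overexpression and was not called: 0.627 and 0.976 FPKM in control, 2.34 and 1.32 under overexpression, and 0.380 and 0.954 under knockdown (limma, adjusted p = 0.172).

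Cytolinkers, large proteins that tie intermediate filaments to actin, microtubules and junctions, had 3 of 8 tested genes higher and 1 lower under knockdown (14.8% and 31.3% over all tested genes), with a median of 0.15. Plec, the plectin gene, stood at 15.6 and 17.1 FPKM in control, 19.7 and 17.2 under overexpression, and 20.6 and 20.8 under knockdown, a rise of 0.33 ± 0.07 (limma, adjusted p = 0.00702). Dst, which encodes dystonin, rose by 0.33 ± 0.09 and Fbf1, a keratin-binding protein, by 0.32 ± 0.06, while Pkp4, a plakophilin, fell by 0.20 ± 0.06. The call of Pkp4 ended under each of the 3 other scalings (limma, adjusted p = 0.0861 to 0.357), and without control 1, control 2 or knockdown 1 (0.0871 to 0.109). That of Plec ended without control 1 (limma, adjusted p = 0.0575), and that of Dst without control 2 (0.105) or knockdown 2 (0.0993). Without control 1 or control 2, 2 genes of the list were called.

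Of 14 tested genes of motors for filament transport, from kinesin, dynein and dynactin subunits to the actin-based myosin Myo5a, 9 were lower and 0 higher under knockdown (31.3% and 14.8% over all tested genes), with a median of -0.23. The dynein light chain genes Dynll1 (-0.50 ± 0.05) and Dynll2 (-0.45 ± 0.05) and the kinesin light chain gene Klc1 (-0.28 ± 0.05) had the smallest p. Dynll1 went from 92.6 and 95.3 FPKM to 64.1 and 68.3. With quantile normalization or a common FPKM sum only 3 of the motor genes were lower.

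Of 23 kinases and phosphatases that act on neurofilaments, vimentin or nestin, 13 were lower and 0 higher (31.3% and 14.8% over all tested genes), with a median of -0.19. After median log ratio scaling 9 were lower and 1 higher, after quantile normalization 8 and 3, and with a common FPKM sum 8 and 4. Plk1, a mitotic kinase that phosphorylates vimentin, went from 37.3 and 38.7 FPKM to 24.3 and 22.5 (-0.67 ± 0.06; limma, adjusted p = 1.22e-04). The catalytic subunits of protein phosphatase 2A, Ppp2cb (-0.49 ± 0.05) and Ppp2ca (-0.35 ± 0.04), followed.

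RNA-binding proteins known to bind neurofilament transcripts were lower in 11 of 12 cases and higher in 0 (31.3% and 14.8% over all tested genes), with a median of -0.40. Between 8 and 9 were lower under the 3 other scalings. Elavl2, a neuronal Hu protein, stood at 21.6 and 21.8 FPKM in control, 17.5 and 18.9 under overexpression, and 13.7 and 13.4 under knockdown. The log2 fold change of Elavl2 was -0.64 ± 0.06 under knockdown (limma, adjusted p = 1.46e-04) and -0.24 ± 0.06 under overexpression, not called (limma, adjusted p = 0.0757). Pcbp2, a general RNA-binding protein, had a log2 fold change of -0.52 ± 0.05 under knockdown.

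Of 6 enzymes that process lamins, 3 were lower and 0 higher under knockdown (31.3% and 14.8% over all tested genes), with a median of -0.25. Fnta, the shared alpha subunit of the farnesyl and geranylgeranyl transferases, went from 47.9 and 49.1 FPKM to 29.8 and 28.0 under knockdown, a log2 fold change of -0.73 ± 0.05 (limma, adjusted p = 7.88e-05). Fntb, the farnesyltransferase beta subunit, went from 8.59 and 7.64 FPKM to 5.91 and 5.86 (-0.40 ± 0.07). Zmpste24, the protease that matures prelamin A, went from 12.4 and 13.8 FPKM to 10.02 and 8.67 (-0.45 ± 0.08). These 3 enzymes were lower under each scaling. Pggt1b (0.15), Rce1 (-0.10) and Icmt (-0.06) were not called as deposited, and 1 gene of the list was higher after median log ratio scaling or with a common FPKM sum. Under overexpression limma called 0 of the 6, where 1.54% of all tested genes were called. An unadjusted p under 0.05 was found for 0 of the 6, where 17.1% of all tested genes had such a p.

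Of 20 tested nuclear envelope partners of lamins, 4 were higher and 8 lower under knockdown, shares near those over all tested genes (14.8% and 31.3%), with a median of -0.06 against -0.07 over all tested genes. The lower count rests on the scaling, at 4 after median log ratio scaling, 2 after quantile normalization and 1 with a common FPKM sum, beside 5 higher in each. As deposited, 2 were higher and 4 lower without control 1, 3 and 4 without control 2, 2 and 5 without knockdown 1, and 5 and 5 without knockdown 2. Syne1, a nesprin that links the nucleus to the cytoskeleton, went from 2.38 and 2.28 FPKM to 3.40 and 3.92 (0.48 ± 0.09; limma, adjusted p = 0.00277). Lemd2, a LEM-domain protein of the inner nuclear membrane, rose by 0.35 ± 0.06, and Nup153, a nuclear pore protein that binds lamins, fell by 0.31 ± 0.05. Filament turnover and chaperone genes had 1 of 14 higher and 4 lower, the lower share near the 31.3% of all tested genes (14.8% were higher), among them the ubiquitin ligase gene Stub1 (-0.24 ± 0.06), Dnajb6 (-0.23 ± 0.06) and the small heat shock gene Hspb8 (-0.17 ± 0.05), with a list median of -0.0025. With a common FPKM sum 4 were higher and 0 lower, so no direction holds for that list, and without control 1 limma called 0 of the 14 (4 at an unadjusted p under 0.05). Of these genes 1 was higher and 1 lower without control 2, 2 were lower without knockdown 1, and 1 was higher and 2 lower without knockdown 2. The call of Hspb8 ended under each of the 3 other scalings (limma, adjusted p = 0.115 to 0.954), that of Dnajb6 likewise (0.0637 to 0.194), and that of Stub1 after quantile normalization (0.229) or with a common FPKM sum (0.158).

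Transcription factors known to act on filament genes moved both ways under knockdown, 7 of 19 higher and 4 lower (14.8% and 31.3% over all tested genes), with a median of -0.05. Egr1, an immediate early factor, stood at 10.5 and 11.9 FPKM in control, 11.6 and 12.9 under overexpression, and 47.4 and 43.7 under knockdown (1.93 ± 0.08; limma, adjusted p = 2.42e-05). Junb (1.14 ± 0.05) and Fos (0.77 ± 0.09), subunits of AP-1, were higher too, as were Fosl2 (0.59 ± 0.07) and Fosb (0.73 ± 0.17), the latter not called without control 1 (limma, adjusted p = 0.0579). Of the other AP-1 subunits tested, Jund was lower (-0.20 ± 0.05; limma, adjusted p = 0.00799), a call that ended under the 3 other scalings (0.0506 to 0.624), and Jun was not called (-0.15 ± 0.05; 0.0513). Rest, a repressor of neuronal genes, was among the 7 and, chosen after its values were seen, stood at 2.71 and 2.83 FPKM in control, 3.32 and 2.76 under overexpression, and 4.14 and 3.92 under knockdown (0.42 ± 0.09; limma, adjusted p = 0.00478). Isl1, a homeobox factor of sympathetic and motor neurons, was the only gene of these 9 lists called under overexpression, where 1.54% of all tested genes were, at 16.1 and 14.8 FPKM in control, 9.21 and 11.1 under overexpression (-0.56 ± 0.09; limma, adjusted p = 0.0218), and 11.6 and 10.9 under knockdown (-0.42 ± 0.09; limma, adjusted p = 0.00436). The Isl1 call under overexpression ended with no filter (limma, adjusted p = 0.137), and when control 1 (0.193), control 2 (0.0818) or overexpression 1 (0.109) was left out.

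**Figure D4:**
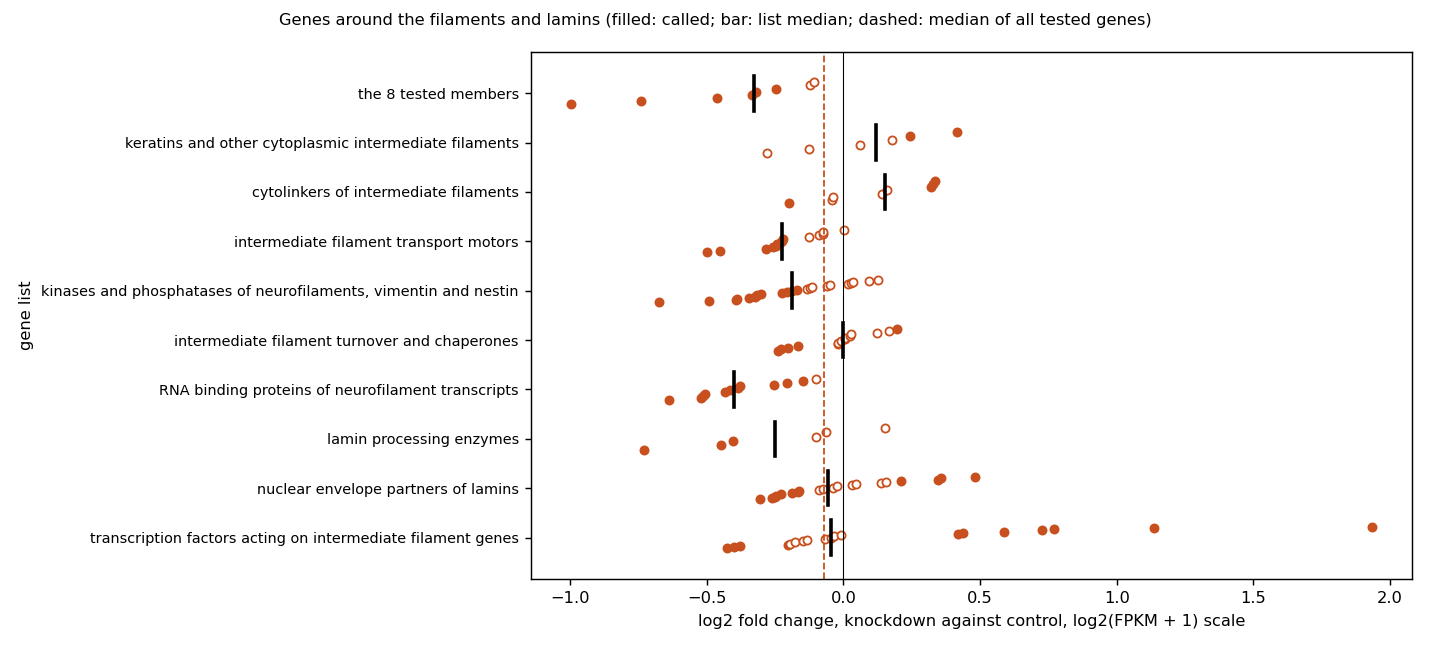
Log2 fold change under knockdown against control, on the log2(FPKM + 1) scale, for the 8 tested members and the tested genes of 9 lists, a row per list. Filled points are called, black bars are list medians, and the dashed line is the median of all tested genes, -0.07. The members' median lies at -0.33 and that of the RNA-binding protein list at -0.40. The list of keratins and other cytoplasmic intermediate filaments and the cytolinker list have medians above 0 on this scaling. The tested keratins themselves, Krt8 (-0.28) and Krt17 (-0.13), lie below 0 and were not called.

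Genes of like pattern were sought for the 3 members with the largest change under knockdown, as the smallest distance over the 6 libraries between log2(FPKM + 1) values taken relative to the control mean. Nearest to Nefh were Slco3a1, an organic anion transporter (distance 0.0936), Camk1d, a calmodulin-dependent kinase (0.204), and Mad1l1, a spindle checkpoint gene (0.205). Slco3a1 stood at 17.6 and 16.5 FPKM in control, 17.4 and 18.1 under overexpression, and 8.29 and 8.36 under knockdown. Nearest to Lmnb1 were Large (0.129), a glycosyltransferase of dystroglycan, Nrp1 (0.146), the neuropilin-1 receptor, and Pdlim3 (0.155). Nearest to Ina were Nipa2 (0.0779), a magnesium transporter, and the transcription factors Bnc2 (0.0914) and Nfib (0.0914). Pdlim3 stood at 2.04 and 1.70 FPKM in control and 0.777 and 0.796 under knockdown. Bnc2 stood at 1.32 and 1.27 FPKM in control and 0.559 and 0.737 under knockdown. At such low levels the log2(FPKM + 1) scale understates changes, so nearness on it is not an equal fold change in FPKM.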

How the data were processed

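RNA from Neuro-2a cells was sequenced as 6 libraries from total RNA with a stranded mRNA kit, per the labels' protocols. The authors deposited FPKM values per gene symbol and library. The submitters' processing notes name the build mm10 and Trimmomatic, HISAT2, Cufflinks, HTSeq and DESeq, with no versions, annotation, filters or strand setting. FPKM depends on each library's total, so all values shift when abundant genes change. Of 21878 rows, 10721 with a mean of at least 1 FPKM were tested, 8 of the 10 members among them. Values were taken as log2(FPKM + 1), which understates changes of low genes. A mean per group was fitted to all 6 libraries with limma 3.58.1 in R 4.3.3 (empirical Bayes with an expression trend, 3 residual degrees of freedom), and Benjamini-Hochberg adjusted p under 0.05 was called. The fit was tested on simulated data in which few genes changed, in both directions alike. That run does not speak to changes as wide as those under knockdown or to the scaling.

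The members and 9 gene lists were chosen with earlier results of these data known. Named from each list were up to 3 genes of smallest p in each comparison against control, with values given for some of them (others are not reported here), plus all members and the 3 genes nearest in pattern to each of 3 members. Lists are described by counts and medians. Gene spans are from GENCODE M21 on GRCm38 (mm10), and promoters from RefSeq on GRCm38.p6, which held entries for Ina, Prph, Vim, Nes, Lmna and Lmnb2. As alternatives, pseudocounts of 0.1 and 0.5 were tried, a minimum of 5 FPKM or none, median log ratio and quantile scaling, a fit without trend, only the 4 libraries compared, a replicate block and each library left out. Scaling to a common FPKM sum was added after the data were seen. Replicate numbers were not used to pair the samples outside the replicate block.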

Additional observations from a re-analysis of the deposited data

How the results depend on the processing

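Calls of the 8 members kept their side of the threshold in every alternative against control apart from Vim under knockdown after quantile normalization, and in overexpression against knockdown apart from Nes with a common FPKM sum. Genes called under overexpression numbered 165, and 9 without a filter, 97 without the expression trend and 66 with a replicate block. With 1 library left out they ranged from 14 to 172, where a group reduced to 1 library is assumed to vary like the others. The block changed no member's call. Deviations of same-numbered libraries correlated at -0.117 (control and overexpression), 0.0069 (control and knockdown) and -0.211 (overexpression and knockdown) across genes. These values cannot show whether same-numbered libraries shared a batch, and the numbers were used in the main fit to name samples only. With 1 FPKM added to each gene, shares in control, overexpression and knockdown became 0.229%, 0.234% and 0.260% for Nefl, 0.224%, 0.232% and 0.257% for Nefm, and 86.9%, 86.4% and 90.4% for Prph. Those of Nefh became 5.84% under overexpression and 3.10% under knockdown. The added value alone sets the shares of Nefl and Nefm. Both genes rest on a few fragments per library.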
